A study of Homo sapiens with 20 samples.

Results

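The 8 intestinal identity genes described here are CDX1, CDX2, CDH17, VIL1, FABP1, LGR5, ISX and GUCA2A. They were chosen by name, as genes that mark intestinal epithelium, and were followed through every layer of the study: bulk RNA-seq, single-cell RNA-seq and the peaks of open chromatin in their bodies and within 5 kb upstream. All 8 were present among the 62703 genes of the count tables.

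Intestinal epithelium is renewed from crypt stem cells, whose daughters become absorptive enterocytes or secretory cells as they move towards the lumen. Its posterior identity rests on the caudal-type homeobox factors CDX1 and CDX2, while neighbouring foregut endoderm, from which pancreas and liver arise, keeps these factors low. In that scheme CDX1, CDX2 and ISX are transcription factors, LGR5 is the R-spondin receptor that marks crypt stem cells, and CDH17, VIL1 and FABP1 are a cadherin, a brush border actin binder and a fatty acid carrier of enterocytes. GUCA2A encodes guanylin, a peptide that regulates salt and water secretion. Several of these genes are not restricted to the intestine, since VIL1 is also used by pancreatic and biliary epithelium and FABP1 by liver.

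All samples came from HUES8 human pluripotent stem cells, an established embryonic stem cell line, that carry an inducible Cas9. In the knockout (KO) the gene of the glutathione peroxidase GPX2 was deleted by CRISPR, and wild type (WT) cells are the controls. Bulk RNA-seq was done on 4 libraries of day 6, labelled as foregut endoderm of the pancreatic protocol (a WT and a KO pair), and on 8 libraries of cells that had differentiated spontaneously until day 8, as pairs of KO, of KO given sodium selenite, of WT and of WT given H2O2. Single-cell RNA-seq covered day 8 (early pancreatic endoderm) and day 21 (stem cell-derived beta cell stage) of pancreatic differentiation with 1 WT and 1 KO library each, and ATAC-seq used spontaneously differentiated cells of day 8, 2 libraries for each genotype. The labels give 10 nM H2O2 and 100 pM selenite, whereas the study's methods give H2O2 at 10 micromolar. The KO lines are clones, one of which was used for RNA and another for ATAC-seq, so a difference between genotypes cannot be told apart from a difference between clones. The study's methods speak of independent biological replicates in general terms without saying which of these RNA libraries came from separate cultures, and where they did not, p-values measure technical spread. The titles of the day 6 libraries carry the same mark as those of spontaneous differentiation, and at day 8 the genotype label reads WT for every bulk library, so KO was taken from the titles.

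Bulk libraries held 7315509 to 9725172 counts at day 6 and 4234408 to 8617728 at day 8. GPX2 was lower in every KO library than in every WT library of its day but was not at 0. It stood at 3.85 and 5.62 CPM (counts per 1e6 counts of the library) in KO against 17.7 and 7.49 in WT at day 6. At day 8 it stood at 25.9 and 24.4 in KO, 37.3 and 41.5 in KO with selenium, 99.8 and 115 in WT, and 136 and 118 in WT with H2O2. The single-cell libraries held 1701 WT and 1837 KO cells at day 8, with a median of 1040 and 836 unique molecular identifiers (UMIs, each 1 captured RNA molecule) per cell, and 6128 WT and 5611 KO cells at day 21, with medians of 5638 and 8061. GPX2 had 4 and 1 UMIs in WT and KO at day 8, and 109 and 46 at day 21. The WT and KO libraries shared 7 cell barcodes at day 21 and 0 at day 8.

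In hg38, CDX2 lies on the minus strand at chr13:27960918-27969315, CDX1 on the plus strand at chr5:150166778-150184558 and ISX at chr22:35066136-35087387 on the plus strand. FABP1 (chr2:88122982-88128062) and GUCA2A (chr1:42162690-42164745) are read from the minus strand, VIL1 (chr2:218419121-218453295) and LGR5 (chr12:71439798-71586310) from the plus strand. The reads were counted without strand, so that reads of VIL1 and its antisense neighbour USP37, and of LGR5 and its antisense neighbour TSPAN8, cannot be told apart where the genes overlap. CDH17, read from the minus strand of its chromosome, contains the pseudogene RPL6P23 on that strand.

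The 250 bases before the RefSeq start (GRCh38.p14) are shown for 3 genes, because a peak of open chromatin lay over each of these starts in both genotypes (given with the ATAC-seq values) while their RNA ranged from abundant to nearly absent. CDX2 (chr13:27969316-27969565, minus strand), FABP1 (chr2:88128063-88128312, minus strand) and GUCA2A (chr1:42164746-42164995, minus strand) are written 5′ to 3′, ending at the base before the start. Capitals mark matches to GCAATAAA, GCCATAAA, GTAATAAA or GTCATAAA on either strand (words of CDX factors), TATAAA on the gene's strand (the TATA box) and AGATAA on either strand (a GATA factor word).
CDX2: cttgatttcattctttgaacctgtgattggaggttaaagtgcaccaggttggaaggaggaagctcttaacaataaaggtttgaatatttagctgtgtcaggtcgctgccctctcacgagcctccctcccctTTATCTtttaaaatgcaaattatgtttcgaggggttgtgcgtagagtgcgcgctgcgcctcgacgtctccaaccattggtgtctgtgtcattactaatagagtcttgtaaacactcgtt
FABP1: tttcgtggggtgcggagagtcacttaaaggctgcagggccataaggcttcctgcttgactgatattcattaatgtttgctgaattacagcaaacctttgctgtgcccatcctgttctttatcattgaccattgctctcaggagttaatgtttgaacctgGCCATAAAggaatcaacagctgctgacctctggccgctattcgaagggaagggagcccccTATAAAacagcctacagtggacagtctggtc
GUCA2A: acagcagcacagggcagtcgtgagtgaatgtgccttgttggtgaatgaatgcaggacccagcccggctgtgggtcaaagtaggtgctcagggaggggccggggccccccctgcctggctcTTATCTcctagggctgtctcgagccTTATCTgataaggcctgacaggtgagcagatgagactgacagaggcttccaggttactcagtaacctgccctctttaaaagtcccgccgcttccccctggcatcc
FABP1 held a CDX word at -91 to -84 and a TATA box at -31 to -26 from its start. CDX2 held a GATA word at -119 to -114, and GUCA2A held GATA words at -130 to -125 and -105 to -100. ISX, the other gene with a window of this kind, held none of the motifs. Of 27305 such windows over all genes, 2.87% held a CDX word, 7.17% the TATA box and 9.37% the GATA word. The matches are a description of letters and not of binding.

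At day 6, CDX2 RNA was higher in KO than in WT and was the single gene of the 8 that passed the test. CDX2 had 153 and 244 counts in the KO libraries and 59 and 31 in the WT libraries, which is 15.9 and 25.05 against 6.90 and 4.27 CPM. Both KO libraries lay above both WT libraries. The log2 fold change (the difference on a scale where 1 is a doubling) was 1.86 (standard error, SE, 0.29, adjusted p = 0.0457 by edgeR's quasi-likelihood F test with Benjamini-Hochberg adjustment over 14633 genes). Of all genes tested, 56 passed at an adjusted p under 0.05, or 0.383%, against 1 of the 5 intestinal identity genes with enough counts to be tested. CDX2 ranked 53 among all genes by p. Its call was lost with limma-voom (adjusted p = 0.0791) and without the filter on low counts (adjusted p = 0.480 in edgeR), and held with DESeq2 (adjusted p = 4.30e-05) and with each library left out in turn (adjusted p = 3.34e-14 to 0.00366 in edgeR). In bulk libraries fewer cells of a type and less RNA per cell cannot be told apart.

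VIL1, the brush border actin binder, was the most abundant of the 8 at day 6 and moved little. It stood at 311 and 291 CPM in KO and at 350.0 and 395 in WT, so that the groups did not overlap and KO was the lower one. Its log2 fold change of -0.31 (SE 0.09) did not pass (adjusted p = 0.244, edgeR). It passed with library WT E2 left out (-0.39, adjusted p = 0.00238, edgeR) and with the letter of the column headings, E or F, as a block (adjusted p = 0.00250, edgeR).

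The enterocyte gene FABP1, the stem cell receptor LGR5 and the homeobox gene ISX overlapped between the genotypes at day 6. FABP1 stood at 5.52 and 11.4 CPM in KO and 4.09 and 6.75 in WT (log2 fold change 0.66, SE 0.38, adjusted p = 0.673, edgeR). LGR5 stood at 10.1 and 7.29 CPM in KO and 9.82 and 12.4 in WT (-0.35, SE 0.24, adjusted p = 0.721, edgeR). ISX stood at 8.53 and 4.82 CPM in KO and 8.30 and 6.07 in WT (-0.11, SE 0.32, adjusted p = 0.949, edgeR). In both genotypes the higher FABP1 value belonged to the library with the letter F, and a comparison of the letters, chosen after seeing the data, gave FABP1 a log2 difference of 0.91 (SE 0.25, adjusted p = 0.0251, edgeR), where 431 of 14633 genes passed (2.95%). CDX1 (2 counts in either KO library and 0 in either WT library), CDH17 (1 and 1 counts in KO, 4 and 0 in WT) and GUCA2A (1 and 4 in KO, 2 and 4 in WT) were too low to be tested.

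**Figure D1:**
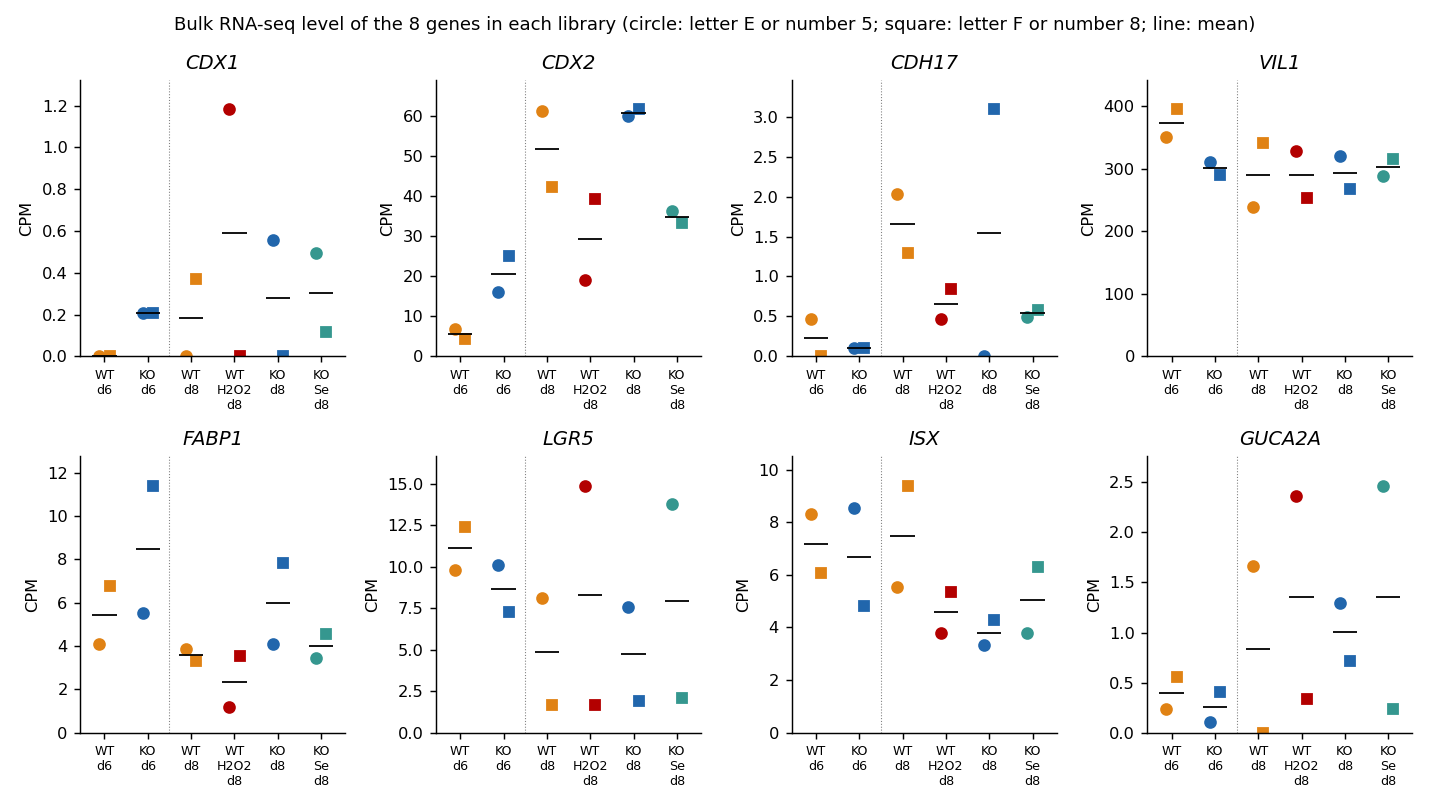
Level of each of the 8 genes in CPM (vertical axis) in each bulk library of day 6 and day 8 (horizontal axis, left and right of the dotted line). Each point is 1 library, circles are letter E or number 5, squares are letter F or number 8, and lines are means of 2 libraries. At day 6 CDX2 lies at 15.9 and 25.05 in KO, above 6.90 and 4.27 in WT, and at day 8 the circles of LGR5 lie above the squares in every group.

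At day 8 of spontaneous differentiation none of the 8 genes differed between KO and WT past the threshold, and 0 of 14470 genes did in edgeR (0%). With an unadjusted p under 0.05 the count over all genes was 177, DESeq2 called 2 genes, limma-voom 0 and edgeR with the number of the column headings as a replicate block 2, none of them among the 8. CDX2 stood at 60.0 and 61.6 CPM in KO and 61.1 and 42.4 in WT, groups that overlapped (log2 fold change 0.23, SE 0.33, 95% interval -0.42 to 0.89). The 95% intervals of bulk fold changes treat the SE as normal, which is too narrow for so few libraries. These CDX2 levels were above those of either genotype at day 6, a comparison across protocols and tables that was not tested. The spread among libraries was wide at day 8 (biological coefficient of variation 0.302, against 0.0949 at day 6). With counts simulated at this spread, the same test, which does not use the number in the column headings, recovered 5 of 100 genes changed by a factor of 2 and 63 of 100 changed by a factor of 4. With the number as a term the biological coefficient of variation was 0.154, and recovery was not simulated for that fit.

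Of the 8 genes, ISX and FABP1 had KO and WT libraries that did not overlap at day 8. With 2 libraries a group this can happen by chance. The share of all genes without overlap was not worked out in any bulk comparison, so no separation is read as a result by itself. ISX, a homeobox factor that acts on intestinal vitamin A uptake, stood at 3.33 and 4.28 CPM in KO and at 5.54 and 9.39 in WT (log2 fold change -0.97, SE 0.46, 95% interval -1.87 to -0.08, adjusted p = 1.00, edgeR). FABP1 stood at 4.07 and 7.85 CPM in KO and at 3.88 and 3.31 in WT (0.72, SE 0.57, 95% interval -0.41 to 1.84, adjusted p = 1.00, edgeR). Neither difference passed. VIL1 overlapped at 321 and 267 CPM in KO and 238 and 341 in WT (0.02, SE 0.23, 95% interval -0.42 to 0.46). CDH17 had 0 and 13 counts in KO and 11 and 7 in WT, and GUCA2A had 7 and 3 in KO and 9 and 0 in WT. CDX1 had 0 to 5 counts in each day 8 library and was not tested.

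H2O2 was added to WT cells to raise oxidative stress without the deletion. CDX2 was lower in both H2O2 libraries (19.1 and 39.2 CPM) than in both WT libraries (61.1 and 42.4). The log2 fold change was -0.82 (SE 0.34, 95% interval -1.48 to -0.15), did not pass (unadjusted p = 0.0465, adjusted p = 1.00, edgeR) and ran from -1.43 to -0.40 with 1 library left out. Over all genes 0 of 14470 passed (0%), with 130 at an unadjusted p under 0.05, 0 in DESeq2 and limma-voom, and 26, none of them among the 8, with the replicate block. ISX stood at 3.78 and 5.36 CPM with H2O2 and at 5.54 and 9.39 without (log2 fold change -0.70, SE 0.45). CDH17 stood at 0.473 and 0.838 CPM with H2O2 and at 2.03 and 1.29 without (-1.28, SE 1.33), from 2 and 5 counts against 11 and 7. Neither passed. The share of all genes whose libraries separate as those of CDX2, ISX and CDH17 did was not worked out. FABP1 stood at 1.18 and 3.52 CPM and VIL1 at 328 and 253, both overlapping with WT. KO and H2O2 were compared with the same WT libraries, and for CDX2 the log2 fold changes stood at 0.23 and -0.82.

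Selenium, the cofactor of glutathione peroxidases, was added to KO cells. CDX2 stood at 36.2 and 33.2 CPM in KO with selenium and at 60.0 and 61.6 in KO alone, so that the groups did not overlap. Its log2 fold change of -0.81 (SE 0.34, 95% interval -1.47 to -0.15) did not pass (unadjusted p = 0.0461, adjusted p = 1.00, edgeR). Over all genes 0 of 14470 passed (0%), with 144 at an unadjusted p under 0.05. In DESeq2, in limma-voom and with the number as a replicate block 0 genes passed. The SE given here is from the fit without the number. The other members tested overlapped between the groups. FABP1 stood at 3.45 and 4.55 CPM with selenium (-0.56, SE 0.56), ISX at 3.78 and 6.31 (0.42, SE 0.46) and VIL1 at 289 and 315 (0.04, SE 0.23). This comparison shares the KO libraries with that of KO and WT.

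LGR5 and GUCA2A separated the day 8 libraries by the number in the column headings and not by group. LGR5 had 41, 84, 44 and 63 counts in the number 5 libraries of KO, KO with selenium, WT and WT with H2O2, and 8, 18, 9 and 10 counts in the number 8 libraries of the same groups. Every number 5 library lay above every number 8 library. With the number as a term beside the groups, chosen after seeing the data, 3644 of 14470 genes passed (25.2%), among them LGR5 (log2 difference of number 8 against 5 of -2.57, SE 0.27, adjusted p = 3.43e-04, edgeR) and GUCA2A (-2.68, SE 0.66, adjusted p = 0.0174, edgeR). GUCA2A had 7, 15, 9 and 10 counts in the number 5 libraries and 3, 2, 0 and 2 in the number 8 libraries. CDX2 (0.07, SE 0.21), VIL1 (0.00, SE 0.14), FABP1 (0.59, SE 0.32), ISX (0.61, SE 0.23) and CDH17 (0.91, SE 0.81) did not pass in that comparison. What the number stands for is not given in the sources used here.

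In RPKM (CPM divided by the exon length in kb), VIL1 stood far above the other 7 genes in every bulk library, from 34.5 to 57.3. At day 6 in WT the mean level of VIL1 (54.0 RPKM) was followed by FABP1 (2.24), LGR5 (2.13), ISX (2.12) and CDX2 (1.59). The libraries of FABP1, LGR5 and ISX overlapped, so their order was not resolved. At day 6 in KO, CDX2 came second at 5.82 ± 1.83 RPKM (SD, n = 2) followed by FABP1 at 3.50 ± 1.72, with overlapping libraries. At day 8, CDX2 came second in every group, from 8.30 ± 4.03 RPKM in WT with H2O2 to 17.3 ± 0.33 in KO (SD, n = 2), and the remaining 6 genes stood at 2.47 or lower as group means. CDX1 and CDH17 had the lowest mean levels in every day 8 group, at 0.104 to 0.333 and 0.139 to 0.428 RPKM.

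Among a wider list of 93 intestinal genes, which holds the 8, CDX2 and HNF4A rose at day 6 and none fell, of 52 tested, beside 56 of 14633 genes in all (0.383%). The CDX2 call is the one lost with limma-voom and without the filter. HNF4A, a nuclear receptor of gut and liver epithelium, stood at 399.5 and 463 CPM in KO and 269.6 and 278 in WT (log2 fold change 0.66, SE 0.09, adjusted p = 0.0287, edgeR). The median log2 fold change of the list was 0.22, beside -0.01 over all genes tested. By role, 2 of 14 regulators passed, and 0 of 15 crypt stem cell and WNT genes, 0 of 19 brush border and absorptive genes and 0 of 4 secretory and guanylin genes did. The brush border and absorptive genes had a median log2 fold change of 0.38, with 14 of 19 on the higher side in KO. At day 8, 58 genes of the list were tested and 0 passed in any of the 3 comparisons. The list medians were 0.01 for KO against WT, -0.10 for H2O2 against WT and 0.03 for selenium against KO, beside 0.00, 0.00 and 0.01 over all genes.

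In single cells of day 8 pancreatic endoderm, VIL1, LGR5 and ISX were the genes of the 8 with at least 10 UMIs over both libraries. With 1 library per genotype there is no test, and every interval covers counting error only. VIL1 had 267 UMIs in WT and 344 in KO, or 93.0 and 132 CPM, a ratio of KO to WT of 1.42 (exact conditional 95% interval 1.21 to 1.67). Cluster 6, 210 deep barcodes led by mitochondrial RNA (MTRNR2L1, MTRNR2L12 and MT-CO2), held 69 and 139 of these UMIs, at 70.2 and 143 CPM (ratio 2.04, 1.52 to 2.77), and without it, an alternative chosen after seeing the data, the VIL1 ratio was 1.196 (0.979 to 1.46). LGR5 had 20 UMIs in WT and 40 in KO, a ratio of 2.20 (1.26 to 3.98). ISX had 50 UMIs in WT and 16 in KO, a ratio of 0.353 (0.188 to 0.630). Of these 3 intervals 2 lay above 1 and 1 below it, beside 25.3% of the 16101 genes with at least 10 UMIs whose interval excluded 1.

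CDX2 was near the floor of these shallow libraries, with 5 UMIs in WT and 4 in KO, where 3 UMIs equal 1.05 CPM in WT and 1.15 in KO. The paper stained CDX2 protein at this stage and found it higher in KO. It proposes that the low detection of PDX1 and SOX9 in these cells is likely a matter of sensitivity. CDH17 had 1 UMI in either library, FABP1 had 2 in WT and 0 in KO, and CDX1 and GUCA2A had 0 in both. A count of 0 allowed up to 0.176% of WT and 0.163% of KO cells with a UMI. Where the LGR5 molecules lay differed by cluster: cluster 10, with 3 WT and 210 KO cells, held 19 of the 60 LGR5 UMIs (77.5 CPM), all in KO cells. Pooled over the 7 clusters with at least 50 cells of each genotype the LGR5 ratio was 1.22 (0.624 to 2.39), while that of ISX was 0.380 and that of VIL1 1.48. Cluster 10 was led by MARCHF1, GASK1B, COL19A1, XACT and FBLN2 and could not be named from markers. These clusters of both genotypes together were formed without the 8 genes.

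At day 21, CDX1, CDX2, CDH17, FABP1 and LGR5 stood several times higher in the KO library than in the WT library, ISX stood higher by less, and VIL1 stood slightly lower. CDX2 had 214 UMIs in WT (5.77 CPM) and 2433 in KO (52.2 CPM), a ratio of 9.05 (7.86 to 10.5). CDX1 had 0 UMIs in WT and 232 in KO (4.98 CPM), at least 61.5-fold higher when WT is set to 3 UMIs per library. The 2 caudal factors were therefore both more abundant in the KO library, from a WT level that was low for CDX2 and not detected for CDX1.

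Among the enterocyte genes of day 21, CDH17 had 85 UMIs in WT and 3859 in KO (2.29 and 82.8 CPM), a ratio of 36.1 (29.1 to 45.3). FABP1 also had 85 UMIs in WT and 1588 in KO (2.29 and 34.1 CPM), a ratio of 14.9 (11.9 to 18.7). VIL1 had 4668 UMIs in WT and 5315 in KO (126 and 114 CPM), a ratio of 0.906 (0.871 to 0.942). VIL1 was thus abundant in both libraries and differed little, while CDH17 and FABP1 were low in WT and many times higher in KO.

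The receptor LGR5 had 4 UMIs in WT and 199 in KO at day 21 (0.108 and 4.27 CPM), a ratio of 39.6 (15.2 to 147). ISX had 83 UMIs in WT and 191 in KO, a ratio of 1.83 (1.41 to 2.399). GUCA2A had 0 UMIs in WT and 1 in KO, too few for a comparison. Of the 7 genes with at least 10 UMIs, 5 ratios had intervals above 1, VIL1 was below 1, and CDX1 had the lower bound alone. Over all 24389 genes with at least 10 UMIs, the interval excluded 1 for 57.4%, with 5594 above and 8402 below, so that an interval apart from 1 was common between these libraries. The KO cells were also deeper, at a median of 8061 UMIs against 5638.

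**Figure D2:**
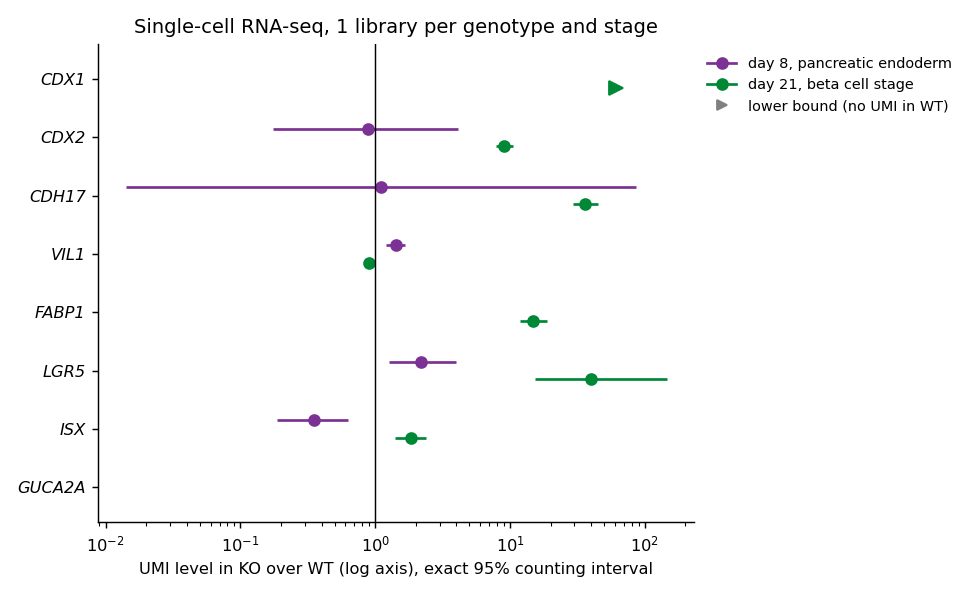
Ratio of KO to WT UMI level (horizontal log axis, no unit) for each of the 8 genes (vertical axis) at day 8 pancreatic endoderm and day 21, 1 library per genotype and stage. Bars are exact 95% counting intervals, the vertical line marks 1, the triangle is the lower bound of CDX1, and genes without UMIs in a library have no other mark. CDX2, CDH17, FABP1 and LGR5 lie at 9.05, 36.1, 14.9 and 39.6 at day 21, and VIL1 at 0.906.

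The share of cells with a molecule moved in the same way. CDX2 was seen in 3.23% of WT cells (95% Clopper-Pearson interval 2.80 to 3.70) and 27.2% of KO cells (26.1 to 28.4) at day 21. CDH17 was seen in 1.13% of WT and 32.6% of KO cells, FABP1 in 1.17% and 14.4%, and CDX1 in 0 of 6128 WT cells, which allows a share of up to 0.0490% by the limit of 3 counts, and in 3.31% of KO cells. With each cell thinned to 3000 UMIs, which left out 281 WT and 36 KO cells, CDX2 was seen in 1.76% and 14.2% of cells and CDH17 in 0.701% and 18.5%. VIL1 was seen in 48.4% of WT and 53.5% of KO cells, and in 30.3% and 27.3% after thinning. For comparison, CDX2 was seen in 2.13%, CDH17 in 2.66% and FABP1 in 2.13% of the 188 cells of cluster 12 (median 8368 UMIs), where the acinar gene CLPS leads. The 311 KO cells of cluster 14 (median 9825 UMIs) had CDX2 in 2.25%, CDH17 in 3.54%, FABP1 in 2.57% and CDX1 in 0.322%. Cluster 14 had alpha cell markers such as GCG and TTR, but gut hormone genes (PYY, GAST and CCK) also led it. The shares in both clusters lay below those over all KO cells.

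Cells of the KO library often held several of the 8 genes at once. At least 3 of them were detected in 26 of 6128 WT cells (0.424%) and in 1007 of 5611 KO cells (17.9%) at day 21. This count was not made at a common depth (medians of 5638 UMIs in WT and 8061 in KO). VIL1, seen in 48.4% of WT and 53.5% of KO cells, can be 1 of the 3. Among KO cells with CDX2, 60.6% also had CDH17, against 22.0% of KO cells without CDX2. FABP1 was found in 24.3% of KO cells with CDX2 and 10.7% of those without, and CDX1 in 7.06% and 1.91%. The median depth was 8066 UMIs in KO cells with CDX2 and 8052 in those without. LGR5 did not follow this pattern, at 1.77% of KO cells with CDX2 and 2.38% of those without, nor did ISX at 2.62% and 3.23%. In WT, 8.59% of CDX2 cells had CDH17, against 0.877% of the others, at median depths of 6553 and 5617.

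Clustering of the day 21 cells, with the 8 genes left out of the genes that formed the clusters, gave 21 clusters. CDX2 and CDH17 were concentrated in clusters 17, 18 and 20, which hold 707, 786 and 491 cells, of which 1 is WT. With 1 library per genotype, cells that came from KO alone cannot be told apart from an effect of that library. CDX2 stood at 143 CPM in cluster 20, 138 in cluster 18 and 94.0 in cluster 17, and CDH17 at 149.6, 184 and 222 CPM in the same order. CDX2 was seen in 60.3%, 64.6% and 45.1% of their cells. These 3 clusters held 19.5%, 34.9% and 18.2% of all CDX2 UMIs. Outside these 3, the small cluster 7 (1 WT and 13 KO cells) had CDX2 at 76.4 CPM (39.5 to 133, 12 UMIs) and CDH17 at 38.2. KO cells of cluster 10 had CDX2 at 29.9 and CDH17 at 61.5 CPM, and cluster 11 (28 WT and 947 KO cells) had 24.3 and 56.6 CPM.

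Cluster 20 was hepatic-like, led by AFP, RBP4, AC019117.1, PIEZO2 and LY75. AFP encodes the fetal serum protein of liver and yolk sac and RBP4 the retinol carrier of plasma. It held the highest level of CDX1 (32.5 CPM, 117 of the 232 UMIs) of all clusters. FABP1 stood at 93.5 CPM (83.8 to 104) there, which did not differ beyond counting error from the 89.1 CPM (80.6 to 98.3) of KO cells in cluster 6. Cluster 18 was led by CST1, XACT, SOX17, PCAT14 and RSPO3, and cluster 17 by SPRR2F, EPHA7, CDH6, NTS and AGR2. Cluster 17 had the hepatic markers AFP, APOA1, FGB, FGA and SERPINA1 past the marker limits, but none of them was among its 10 leading genes by fold and it was left without a name. Cluster 18 had no list with 3 markers past the limits. CDX1 stood at 8.52 CPM in cluster 18 and 8.79 in cluster 17. The intestinal list was left out of the naming, so no cluster could be named intestinal-like. The clusters strongest for CDX2, 18 and 20, had CDX2 and CDH17 past the marker limits of 100 CPM and a fold of 2 over the other cells. VIL1, found in every cluster, did not set them apart, LGR5 and ISX stood at most at 8.33 CPM there and GUCA2A had no UMI. The aminopeptidase gene ANPEP was among the 10 leading genes of cluster 20, at a fold of 14.1.

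LGR5, ISX and VIL1 had their highest levels elsewhere. Among KO cells LGR5 was highest in the proliferating-like cluster 10, at 25.4 CPM (19.5 to 32.6), and in cluster 12, at 23.5 CPM (16.5 to 32.4), levels that did not differ beyond counting error. Cluster 12 (1 WT and 187 KO cells) was KO almost alone, with CLPS, AL139815.1, DLK1 and SPINK1 among its leading genes, of which CLPS encodes colipase, a digestive protein of pancreatic acinar cells. Cluster 10 was led by the cell division genes TOP2A, CENPF, MKI67, NUSAP1 and UBE2C. ISX was highest in the beta-like cluster 2 (24.2 CPM, 157 of its 274 UMIs), led by AC090679.2, CALB2, ACVR1C, SLC30A8 and LINC02653, where both genotypes contributed cells (308 WT and 344 KO). ISX was next in cluster 20, at 8.33 CPM. Over both genotypes, VIL1 stood between 12.4 CPM in cluster 19, a KO cluster with trophoblast and amnion markers, and 172 CPM in cluster 16, with LMO3, MEG8, ACOXL and SMOC2 among its leading genes. The VIL1 level of the beta-like cluster 2 was 165 CPM.

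**Figure D3:**
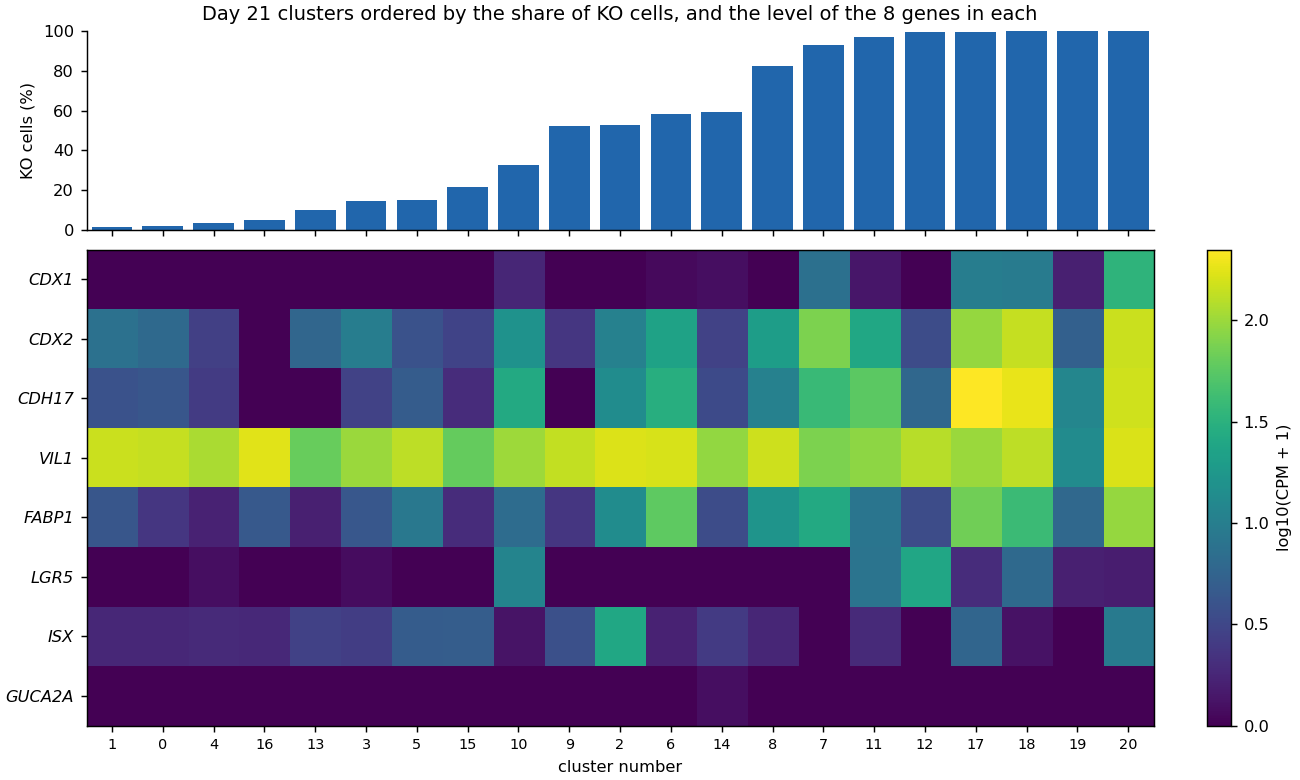
Upper panel, share of KO cells in percent (vertical axis) in each of the 21 day 21 clusters (horizontal axis, ordered by this share). Lower panel, level of the 8 genes (rows) in the same clusters as log10 of CPM plus 1 (colour). CDX2 and CDH17 reach their highest levels in clusters 17, 18 and 20, whose cells are almost all KO, ISX in the mixed cluster 2, and VIL1 is seen in every cluster.

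In 6 clusters at least 50 cells of each genotype were present: the beta-like cluster 2, the enterochromaffin-like cluster 6, the proliferating-like cluster 10, and the clusters 3, 8 and 14. They held 35.6% of WT and 32.5% of KO cells. Over these cells together, a comparison chosen after seeing the data, the ratio of CDX2 was 2.03 (1.64 to 2.52) in place of 9.05, that of CDH17 11.2 (8.03 to 16.2) in place of 36.1, and that of FABP1 10.2 (7.63 to 13.98) in place of 14.9. LGR5 stood at 18.9, from 3 WT and 62 KO UMIs in cluster 10 and 1 KO UMI in cluster 3. ISX stood at 1.81, and at 1.47 (1.04 to 2.11) within cluster 2 alone. The pooled VIL1 ratio was 1.09 (1.03 to 1.16) in place of 0.906. The genotypes were mixed unequally over these clusters, for example 718 WT and 119 KO cells in cluster 3 and 382 and 529 in cluster 6. Pooling did not hold that mix fixed, so the pooled ratios are not ratios within a cluster. Of the KO UMIs, 88.2% of CDX2, 88.0% of CDH17, 97.0% of CDX1, 64.9% of FABP1, 68.3% of LGR5, 57.2% of VIL1 and 36.6% of ISX lay outside these clusters.

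Within single shared clusters the members differed between genotypes to unequal degrees. In the beta-like cluster 2, CDX2 stood at 9.42 CPM in WT and 10.1 in KO, a ratio of 1.08 (0.634 to 1.87), while CDH17 stood at 3.92 and 18.8 and FABP1 at 3.53 and 19.0. In the enterochromaffin-like cluster 6, whose cells resemble serotonin-producing cells, CDX2 stood at 14.8 and 25.7 CPM, CDH17 at 5.52 and 43.7 and FABP1 at 7.94 and 89.1. That FABP1 ratio was 11.2 (7.38 to 17.9). In the proliferating-like cluster 10, CDX2 stood at 5.02 and 29.9 CPM, CDH17 at 2.64 and 61.5 and LGR5 at 0.792 and 25.4, with ratios of 5.97 (3.56 to 10.5), 23.3 (12.3 to 49.6) and 32.1 (10.5 to 160). VIL1 was lower in KO in cluster 10 alone among these 6 by its interval (112 and 79.6 CPM, ratio 0.711, 0.597 to 0.844), and higher in cluster 3 (90.7 and 126 CPM, ratio 1.39, 1.11 to 1.73).

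**Figure D4:**
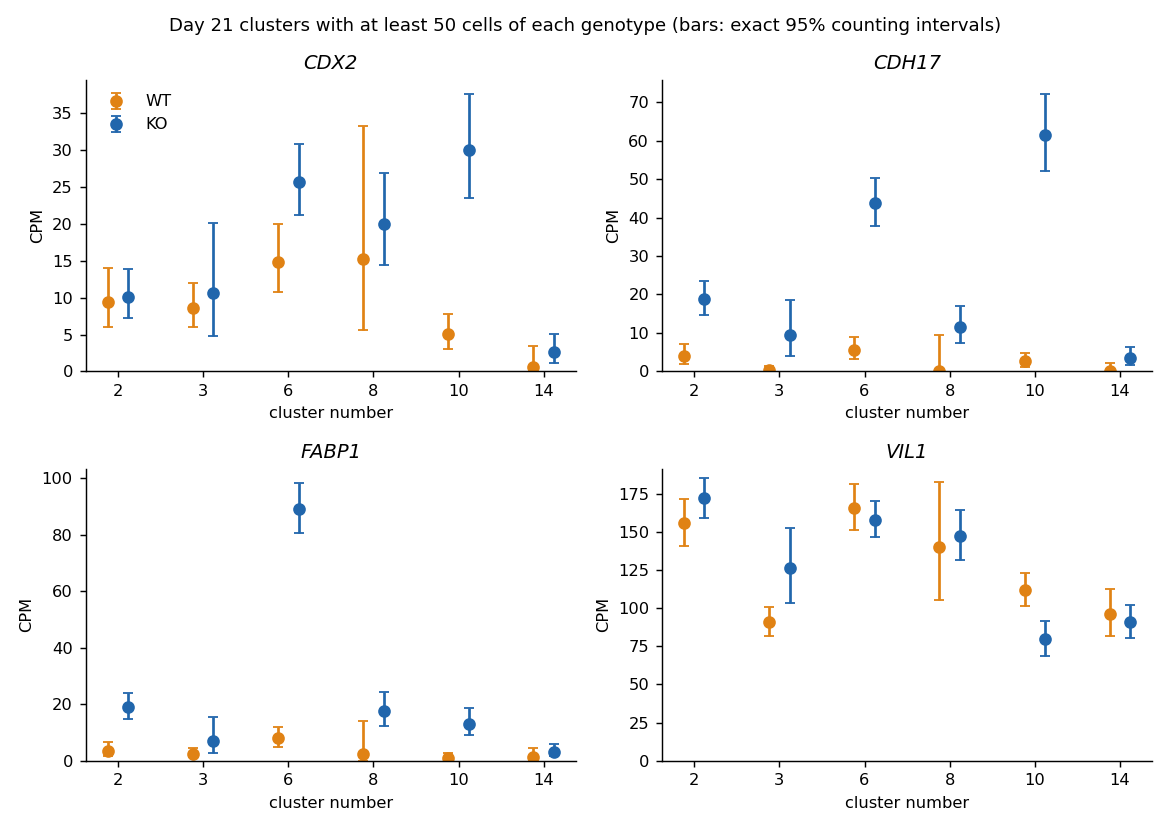
Level in CPM (vertical axes) of CDX2, CDH17, FABP1 and VIL1 in WT and KO cells of the 6 day 21 clusters with at least 50 cells of each genotype (horizontal axes, cluster number). Points are summed UMIs over 1 library and bars are exact 95% counting intervals. FABP1 lies at 7.94 in WT and 89.1 in KO in cluster 6, while CDX2 lies at 9.42 and 10.1 in cluster 2.

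The KO library of day 21 was deposited with all of its 1285152 barcodes, and free RNA could be read from the 1054298 barcodes with 1 to 100 UMIs. CDX2 stood at 43.9 CPM there against 52.2 in the cells, CDH17 at 69.5 against 82.8, FABP1 at 36.3 against 34.1 and VIL1 at 143 against 114. CDX1 was 3.24 times (1.62 to 7.601) higher in the cells than in these barcodes. LGR5 stood at 2.88 CPM against 4.27 and ISX at 6.52 against 4.10. The free RNA of the KO library thus held 7 of the 8 genes. It could not be measured for WT, whose library was deposited as cells. The part of free RNA in the KO values of clusters 2, 6, 10 and 14 was not tested. In KO cells of clusters 2, 6, 10 and 14, FABP1 stood at 19.0, 89.1, 13.1 and 3.25 CPM, beside 36.3 in the free RNA. CDH17 stood at 18.8, 43.7, 61.5 and 3.57 CPM in the same order, below its 69.5 in the free RNA. CDX2 stood at 10.1, 25.7, 29.9 and 2.60 CPM, below its 43.9 there.

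Markers of other cell types differed between the libraries at day 21 as well, with 8 of 13 lists higher in KO as summed levels and 5 lower. The summed level of 8 hepatic markers was 2071 CPM in WT and 5949 in KO, with all 8 detected in both libraries. Of these 8, 3 stood at 10 CPM or more in WT and 7 in KO. TTR is in both this list and the alpha list, and stood at 34615 CPM in cluster 14 against 1322 in the other cells. Its part in the hepatic sums was not worked out. The 6 mesenchyme markers summed to 9.49 and 95.4 CPM, with 4 and 6 of them detected, and the 6 trophoblast and amnion markers to 52.3 and 142 CPM, with all 6 detected in both. Lower in KO were the lists of pancreatic progenitors (219.96 CPM in WT and 149.5 in KO), endocrine progenitors (962 and 797), proliferating cells (255 and 169.7), pluripotent cells (186 and 63.4) and neural cells (509 and 318). The 8 intestinal genes themselves summed to 139 and 297 CPM. The part of cell type makeup in the ratios was not tested.

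Across the 21 clusters, the genes whose level was most like that of a member were found by Pearson's correlation of log2(CPM + 10), as a description over clusters that share libraries and differ in depth. CDX2 was most like CDH17 (r = 0.941), FGG (0.935) and FGB (0.931), the latter pair encoding fibrinogen chains made by liver. CDX1 was most like SI (0.973), the brush border sucrase-isomaltase, ANXA13 (0.956) and MEP1A (0.954), the meprin subunit of the brush border. CDH17 was most like CDX2 (0.941), FGB (0.920) and FGG (0.914), and FABP1 was most like HGD (0.891), CDX2 (0.881) and SP8 (0.875). LGR5 was most like NEFH (0.897), E2F1 (0.888) and WDR76 (0.886), and ISX was most like CYTIP (0.841), SKOR2 (0.814) and LINC02653 (0.799). Among the genes most like VIL1 were KPNA3 (0.783) and BICD1 (0.783), and its correlation with CDX2 was 0.136. Within the 8, CDX1, CDX2, CDH17 and FABP1 had pairwise correlations of 0.786 to 0.941, while LGR5 with CDX2 was at 0.071 and ISX with CDX2 at 0.113.

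ATAC-seq of day 8 spontaneous differentiation gave 44 peaks of open chromatin in WT and 36 in KO at the 8 genes, of 222750 and 202374 in all. The peaks were called by the authors on the 2 libraries of a genotype together, so no spread between libraries is available. Counting peaks that overlap by at least 1 base as shared, 33 of the WT peaks and 33 of the KO peaks were shared. The 11 WT peaks without a KO partner were set against 24.7% unshared among all WT peaks, and the 3 KO peaks without a WT partner were 8.33% of the 36, beside 16.6% of all KO peaks. Those unshared peaks were weak, at folds over background of 1.95 to 2.53 in WT and 1.956 to 2.16 in KO, where the median of all peaks was 2.53 and 2.61. The GPX2 gene held 2 peaks over 692 of its 3595 bases in WT and 1 peak over 29 bases in KO.

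CDX2 had 4 peaks in either genotype, all of them shared. The peak over its start had a fold of 1.99 in WT (chr13:27967894-27969618) and 2.12 in KO (chr13:27967983-27969499), and its strongest peak, at the other end of the gene, had folds of 3.04 (chr13:27960297-27961417) and 3.03 (chr13:27960347-27961398). CDX1 had 4 peaks in either genotype, 3 of them shared, and none over its start. The strongest of these lay about 5 kb upstream, with folds of 3.27 and 3.22. ISX had a single peak in either genotype, over its start, at folds of 3.17 and 3.46. The factors thus had the same peaks in WT and KO except for a weak one in an intron of CDX1 in either genotype (2.15 in WT and 2.01 in KO).

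CDH17 (minus strand, chr8:94127162-94217303) had 9 peaks in WT and 6 in KO, 4 of each shared, and none lay over its annotated start. Its strongest peak lay in an intron (chr8:94198466-94198941 in WT and chr8:94198573-94198901 in KO) with folds of 3.52 and 4.09. VIL1 had 6 and 4 peaks, with folds of 2.69 and 2.696 over its start. FABP1 had 2 in either genotype, with folds of 2.96 and 2.88 over its start. LGR5, the longest of the 8 genes, had 17 and 14 peaks, all 14 of KO shared, with folds of 3.14 and 3.04 over its start and the strongest KO peak in an intron (chr12:71469320-71470059, fold 4.36). GUCA2A had a peak over its start in either genotype, at folds of 2.52 and 2.78, although its RNA had 0 to 15 counts in the bulk libraries of the same day and protocol. The starts of 6 of the 8 genes therefore lay under a peak in both genotypes, those of CDX1 and CDH17 in neither.

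**Figure D5:**
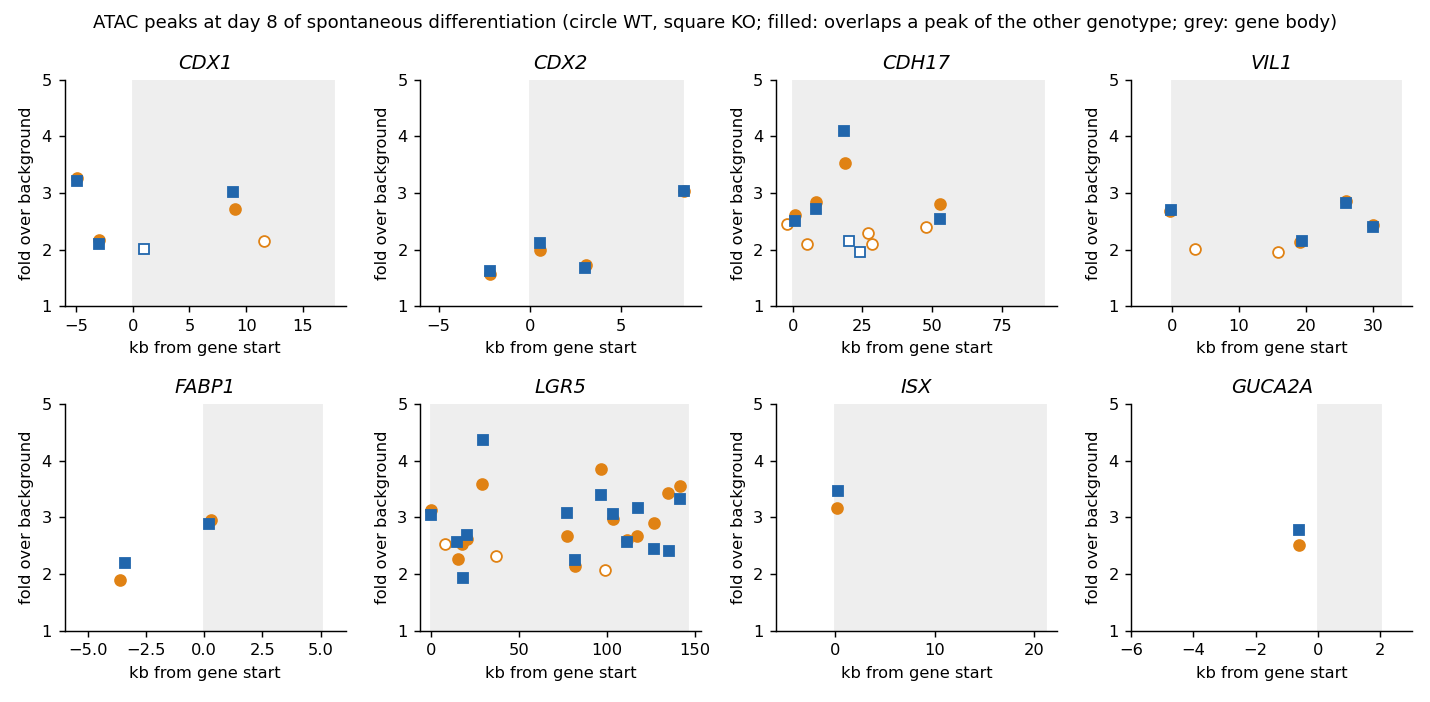
Fold over background (vertical axis) of each ATAC peak at the 8 genes, by the distance of its centre from the gene start in kb (horizontal axis, gene body in grey). Circles are WT and squares KO peaks, each called on 2 libraries together, and open symbols overlap no peak of the other genotype. The open symbols lie between 1.95 and 2.53, below the strongest shared peak of each gene.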

How the data were processed

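All values start from the tables as deposited. The bulk counts are whole numbers of read pairs per gene, which the authors obtained with fastp trimming, STAR alignment to GRCh38 and unstranded featureCounts (v2.0.1 in the day 8 header), and 1 gene of day 6 had no values. The deposited counts of the day 21 single cells are UMIs from Cell Ranger. For the day 8 single cells, a ScaleBio kit that labels cells by combinations of indices, the deposited expected counts hold fractions in 10.2% (WT) and 10.5% (KO) of filled entries and were rounded. The ATAC peaks are broad peaks that the authors called with MACS2 on merged replicates after Bowtie2 alignment to hg38. The deposited peak lists give a fold over background (a ratio), a −log10 q value and a score per peak, of which the fold, the −log10 q and the position were used.

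For the bulk data, edgeR 4.0.16 (R 4.3.3) was applied with TMM factors, a filter on low counts (filterByExpr) and quasi-likelihood fits, and the Benjamini-Hochberg threshold was 0.05. One fit held all 8 libraries of day 8. Intervals on bulk log2 fold changes treat the SE as normal and are narrower than the F test allows. DESeq2 1.42.0, limma-voom (limma 3.58.1), RLE factors, no filter, a replicate block, 2-group fits and leaving out each library were alternatives. Libraries with the same number at day 8 deviated together from their group means (6 pairwise correlations of 0.329 to 0.677), so the number pairs them, and the source of the pairing is these data, not the labels. The SEs, intervals and adjusted p-values printed for the day 8 group comparisons come from the fit without this pairing. The fit with the number as a replicate block was an alternative, and only its calls are reported for the 8 genes. At day 6 each letter marks 1 library per group, too few to say whether letters pair them.

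Cells had at least 200 genes and under 5% mitochondrial UMIs at day 8, and 1500 to 5000 genes and under 15% at day 21. They were clustered in scanpy 1.11.5 (10000 counts per cell, 2000 variable genes, 30 components, 20 neighbours, Leiden resolution 1, no integration). Clusters were named from at least 3 markers at 100 CPM or more and 2 times the other cells, unless their leading genes differed. The intestinal list was not used for names. Doublets were not removed. Single-cell intervals are exact at 95% and cover counting error only.

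The 8 genes were named in every comparison, genes of the wider list where they passed, the 3 genes most like each member (at least 200 UMIs, members with at least 50) and the 5 leading genes of the 2 clusters highest for a member. Some genes that this rule names are not reported here. The members and lists were chosen with earlier results of these data known. The test was tried on simulated counts. Promoter windows and GENCODE annotation are GRCh38, and 4 of the 8 genes had a window.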

Additional observations from a re-analysis of the deposited data

Results flagged for a closer look

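VIL1 and ISX stood on opposite sides of 1 at the 2 single-cell stages. The KO to WT ratio of VIL1 was 1.42 at day 8 pancreatic endoderm and 0.906 at day 21, and that of ISX was 0.353 at day 8 and 1.83 at day 21. All 4 counting intervals excluded 1. Pooled over clusters with at least 50 cells of each genotype, VIL1 stood above 1 at both stages (1.48 and 1.09), with the genotypes mixed unequally over these clusters. In single clusters of day 21 it lay on both sides of 1, at 1.39 in cluster 3 and 0.711 in cluster 10. Without the day 8 cluster led by mitochondrial RNA its day 8 interval included 1 (1.196, 0.979 to 1.46). With 1 library per genotype and stage, and with different single-cell kits at the 2 stages, the difference between stages was not tested.

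Barcodes of 1 to 100 UMIs in the KO library of day 21, which were not taken as cells and enter no comparison of genotypes, held RNA of 7 of the 8 genes above the limit that a count of 0 allows. CDX1 stood at 1.54 CPM, CDX2 at 43.9, CDH17 at 69.5, VIL1 at 143, FABP1 at 36.3, LGR5 at 2.88 and ISX at 6.52. GUCA2A had 0 UMIs there.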

How the results depend on the processing

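Limits. With 2 libraries per bulk group and 1 per genotype and stage in single cells, depth and spread limit what can be seen: CDX1, CDH17 and GUCA2A could not be tested at day 6. The fits with 1 library left out assume that the lone library varies like the others.

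Day 6, KO against WT. Genes called were 149 with DESeq2, 0 without the filter and 842 with the letter as a replicate block, beside 56. Of the 8 genes, 0 were called with limma-voom, 0 without the filter and 2 (CDX2 and VIL1) with the block, beside 1. With 1 library left out, 201 (without KO F1) to 977 (without WT E2) genes and 1 to 2 members were called, and ISX ran from -0.58 to 0.24. The deviations of libraries with the same letter correlated at 0.243, 1 value for 2 pairs that mirror each other, so the letters were treated as a shared mark and not as pairs.

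Day 8. Genes called for KO against WT were 2 with DESeq2, 2 without the filter and 2 with the number as a replicate block, and for H2O2 against WT 26 with the block, beside 0. The block changed no call among the 8 genes. Directions turned where values were near 0 or counts low. For KO against WT these were LGR5 (0.17 with limma-voom) and VIL1 (-0.000691 without the filter). For H2O2, VIL1 turned with DESeq2 (-0.00129), RLE factors (-0.00105) and no filter (-0.0118). For selenium, CDH17 (0.42) and GUCA2A (-0.58) turned with limma-voom. With 1 library left out, CDX2 under H2O2 ran from -1.43 to -0.40, and KO against WT ran from -6.31 to 0.88 for CDH17, -0.0106 to 0.52 for CDX2, -0.70 to 5.57 for GUCA2A, -1.36 to 1.52 for LGR5 and -0.22 to 0.30 for VIL1. H2O2 ran from -1.25 to 5.90 for GUCA2A, -1.53 to 2.28 for LGR5 and -0.23 to 0.29 for VIL1. Selenium ran from -2.47 to 4.72 for CDH17, -2.02 to 1.25 for GUCA2A, -0.00728 to 0.73 for ISX, -1.18 to 2.03 for LGR5 and -0.094 to 0.18 for VIL1. None of these passed the test.

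Single cells. In clusters with at least 50 cells of each genotype, chosen after seeing the data, the LGR5 ratio of day 8 was 1.22 (VIL1 was 1.196 without the cluster led by mitochondrial RNA, also chosen after seeing the data), and at day 21 CDX2 stood at 2.03, CDH17 at 11.2, FABP1 at 10.2 and VIL1 at 1.09. The share of CDX2 UMIs in its top cluster of day 21, 34.9%, was 54.3% at resolution 0.5 and 27.1% at 1.5. Other cell filters moved no ratio by more than its interval.

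ATAC-seq. With a −log10 q of at least 5, WT had 14 peaks at the 8 genes (13 shared) and KO 13 (13 shared). With 20 kb upstream, 50 of the WT peaks and 51 of 55 KO peaks were shared. The cause of each change was not tested.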

Other observations

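Of the list of 93 intestinal genes, 81 had at least 10 UMIs over both libraries of day 21. The counting interval lay above 1 for 45 of them, below 1 for 22 and spanned 1 for 14, beside 5594 above and 8402 below of 24389 genes in all (57.4% apart from 1). Genes without a UMI in WT, among them CDX1 and SI, were counted here as above 1. Brush border and absorptive genes stood higher in KO in 21 of 30 cases and lower in 7, regulators in 8 and 6 of 15, crypt stem cell and WNT genes in 9 and 6 of 21, and secretory and guanylin genes in 7 and 3 of 15. The following genes were chosen after their values were seen. SI, the brush border sucrase-isomaltase, had 0 UMIs in WT and 1638 in KO. MEP1A, a meprin subunit, had 4 and 1052, a ratio of 209 (81.5 to 769). The aminopeptidase gene ANPEP had 12 and 1294 UMIs, a ratio of 85.8 (48.9 to 166). The chloride channel gene CFTR had 81 and 4029, a ratio of 39.6 (31.8 to 49.9). MTTP, which loads lipid onto apolipoprotein B, went the other way, with 6586 and 1324 UMIs, a ratio of 0.160 (0.151 to 0.170). At day 8, 48 genes of the list had at least 10 UMIs, of which 10 stood higher and 10 lower in KO, beside 25.3% of all genes apart from 1.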
